A study of Mus musculus with 2 samples.

Results

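Among the peaks listed for Usp16 in mouse blood progenitors, those of 1000 bp or more were described here. They were selected on peak width, the listed end minus the listed start, and 924 of the 5046 peaks on assembled chromosomes reached that width (18.3%). The other 4122 are called narrower peaks below. The width comes from the same library and the same peak call as the score, so widths and scores are given as a description, with no test.

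Chromatin for the study came from bone marrow cells carrying c-Kit and Sca-1, 2 surface proteins used to enrich hematopoietic stem and progenitor cells, of mice with the genotype Mx1 Cre:Usp16loxp/loxp. In this model both copies of Usp16 can be deleted by a recombinase under the interferon-responsive Mx1 promoter, and neither an induction of the deletion nor the number of mice is stated in the labels. Whether the cells still held Usp16 cannot be told from the labels. There was 1 library with an anti-Usp16 antibody and 1 with IgG, both from such cells, without replicates. A peak list cannot show whether the cells express their defining markers. The comparisons below set shares of wide and narrower peaks side by side with exact 95% intervals (Clopper-Pearson, counting error only). Peaks of 1 list are not replicates, so no test was made between them.

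Usp16 removes ubiquitin from histone H2A, a mark that the Polycomb complex PRC1 places and that is tied to gene silencing. A ChIP peak is a stretch where immunoprecipitated fragments pile up. Its width grows with the spread of the bound protein along the DNA, with the number of neighbouring sites that merge, and with the strength of the signal. Active promoters, which are often rich in CpG dinucleotides, are depleted of nucleosomes and give many chromatin proteins a place to bind, and small RNA genes are short enough for a single peak to cover them from end to end.

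The promoters of the coding genes whose start lay in the widest peaks show the kind of sequence these peaks sat on. Each run is RefSeq sequence (GRCm38.p6, matching mm10), 5′ to 3′ on the gene's own strand, and spans 250 bases before the listed start and 50 from it onwards. Capitals mark matches, on either strand, to the 10 short motifs that were searched and that are spelled out further below. By the rule, 6 such genes qualified, and 5 are printed. The other is the predicted gene LOC108167694. Ptma (prothymosin alpha) lies at chr1:86526307-86526606 on the plus strand. Rpl10a (a ribosomal protein) lies at chr17:28328221-28328520, plus. Mrps18b (a mitochondrial ribosomal protein) at chr17:35916391-35916690, minus, and Ppp1r10 (a regulatory subunit of protein phosphatase 1) at chr17:35916946-35917245, plus, share 1 peak and are read in opposite directions. Eef1a1 (translation elongation factor 1 alpha) lies at chr9:78481675-78481974, minus. H2ac20 (a histone H2A gene, chr3:96220831-96221130, minus) was added after its values were seen, as an example of a promoter with few CpG dinucleotides under a wide peak.
Ptma: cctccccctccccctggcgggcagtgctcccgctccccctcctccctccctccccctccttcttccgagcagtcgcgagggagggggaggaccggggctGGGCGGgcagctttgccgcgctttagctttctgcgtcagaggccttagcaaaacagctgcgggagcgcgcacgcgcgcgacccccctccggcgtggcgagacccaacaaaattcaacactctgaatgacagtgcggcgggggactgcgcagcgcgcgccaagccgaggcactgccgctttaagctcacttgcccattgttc
Rpl10a: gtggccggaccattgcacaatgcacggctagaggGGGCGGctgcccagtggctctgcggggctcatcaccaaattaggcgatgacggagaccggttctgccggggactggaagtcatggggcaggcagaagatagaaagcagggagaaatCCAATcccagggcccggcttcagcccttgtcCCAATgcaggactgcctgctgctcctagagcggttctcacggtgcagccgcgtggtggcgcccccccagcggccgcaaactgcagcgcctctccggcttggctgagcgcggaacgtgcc
Mrps18b: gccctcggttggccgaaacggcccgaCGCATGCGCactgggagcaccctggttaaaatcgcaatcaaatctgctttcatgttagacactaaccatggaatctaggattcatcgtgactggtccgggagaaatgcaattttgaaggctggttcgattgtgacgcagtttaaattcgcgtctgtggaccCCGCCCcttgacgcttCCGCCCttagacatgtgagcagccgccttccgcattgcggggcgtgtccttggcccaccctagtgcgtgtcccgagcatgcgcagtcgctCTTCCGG
Ppp1r10: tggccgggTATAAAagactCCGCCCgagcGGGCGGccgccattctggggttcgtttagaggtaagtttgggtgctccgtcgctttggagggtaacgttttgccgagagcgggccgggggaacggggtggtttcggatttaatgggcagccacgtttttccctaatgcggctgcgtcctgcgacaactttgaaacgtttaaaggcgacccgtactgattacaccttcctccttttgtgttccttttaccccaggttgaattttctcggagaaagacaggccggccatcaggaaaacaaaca
Eef1a1: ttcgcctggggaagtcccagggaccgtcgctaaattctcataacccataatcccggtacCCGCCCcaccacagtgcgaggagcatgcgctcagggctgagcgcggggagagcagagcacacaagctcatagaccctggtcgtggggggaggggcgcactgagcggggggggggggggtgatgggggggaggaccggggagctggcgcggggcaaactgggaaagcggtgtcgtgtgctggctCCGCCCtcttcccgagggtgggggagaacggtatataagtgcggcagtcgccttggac
H2ac20: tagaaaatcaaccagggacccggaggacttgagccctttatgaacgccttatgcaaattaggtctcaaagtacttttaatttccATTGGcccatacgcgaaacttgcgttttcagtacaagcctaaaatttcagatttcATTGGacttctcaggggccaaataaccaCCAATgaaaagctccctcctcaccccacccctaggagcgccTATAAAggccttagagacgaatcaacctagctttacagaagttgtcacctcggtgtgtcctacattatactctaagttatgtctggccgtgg

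The Ptma promoter was 68.0% G or C and held 28 CpG dinucleotides, and those of Rpl10a, Mrps18b, Ppp1r10 and Eef1a1 held 21, 25, 24 and 22. H2ac20 had 9 CpG dinucleotides at 45.3% G or C. Its capitals are 3 matches to the CCAAT box, 2 of them on the other strand, and 1 to the TATA box, elements that histone promoters are known for. Mrps18b, with 4 matches, held the letters searched for NRF1, for ETS factors and for SP/KLF factors.

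Wide peaks had a median width of 1232 bp (quartiles 1089 and 1465 bp) and reached 5017 bp. The narrower peaks had a median of 631 bp. Of the 924, 257 were 1100 bp or less, 53 were 2000 bp or more and 8 were 3000 bp or more. The wide peaks made up 31.6% of all bases covered (1242 of 3933 kb). Just inside the threshold, 3 peaks were exactly 1000 bp wide, with scores of 80.8 inside Vps13b, 59.8 between genes on chromosome 19 and 61.1 at an end of Khdc4. Just outside it, 4 peaks were 999 bp wide, among them 1 of score 97.9 inside Dgki, 1 of score 50.3 at an end of Pprc1 and 1 of score 50 at ends of Smim7 and Tmem38a. The threshold cuts a continuous distribution.

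Scores are the caller's value for a peak, and what they measure is not given in the sources used here. They had a median of 80.9 in wide peaks (quartiles 63.0 and 114) and 68.0 in narrower ones (57.1 and 92.1). The highest score of a wide peak was 680, while a narrower peak reached 2409. Of the 100 highest-scoring peaks 38 were wide. Over all 5046 peaks, which share 1 library and 1 call, Spearman's rho between width and score was 0.29 (Pearson's r 0.13). Within the 4122 narrower peaks rho was 0.28 (r 0.10) and within the 924 wide peaks 0.02 (r 0.05). Both sets are cut by width, so these values only describe them. The plot of widths and scores shows the peaks.

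**Figure D1:**
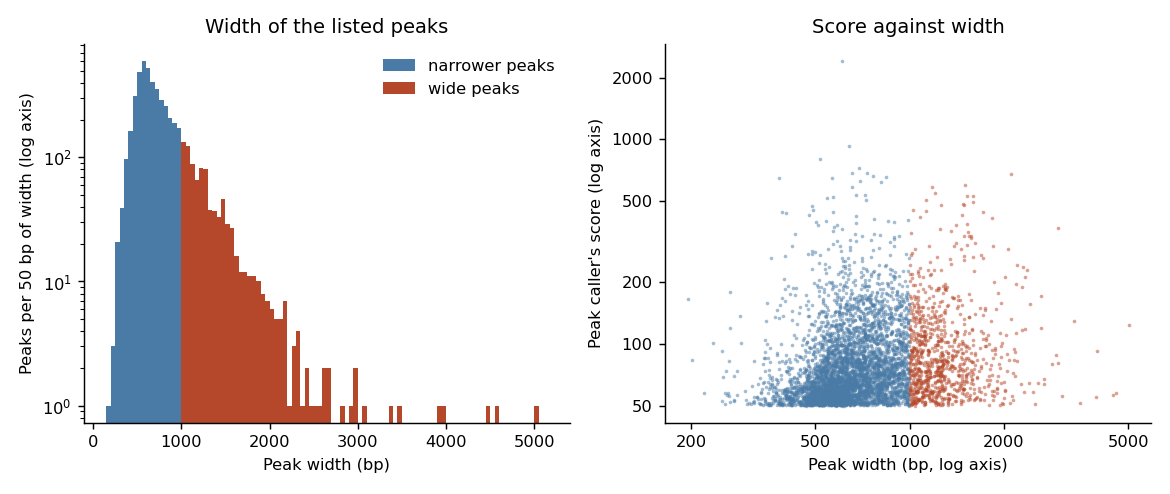
Left, number of peaks per 50 bp of width (log axis) for narrower peaks and for wide peaks of 1000 bp or more. Right, each peak's score against its width (both log axes). The distribution runs through the threshold without a gap, and the 924 wide peaks have scores from 50 to 680.

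Wide peaks sat at genes more often than narrower ones. The midpoint lay within 1 kb of an annotated gene end, meaning either end of a gene, in 705 of 924 wide peaks (76.3%, interval 73.4 to 79.0%) and in 47.8% of narrower peaks (46.3 to 49.4%), against 53.1% of all peaks. Only 74 wide peaks lay between genes (8.01%, 6.34 to 9.95%), where 23.9% of narrower peaks and 21.0% of all peaks lay. Another 145 (15.7%) were inside a gene but away from its ends, against 28.2% of narrower peaks. The median distance from the midpoint to the nearest gene end was 0.247 kb in wide and 1.37 kb in narrower peaks. For these shares the midpoint was used so that a wide peak has no more chance than a narrow one to touch a window.

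Every wide peak was put into 1 of 7 locations, with tRNA, snRNA or snoRNA ends taken first, then coding, lncRNA and other gene ends. Counts of a class elsewhere in the text do not take small RNA ends out first and can be larger. The largest was the end of a single coding gene, with 395 peaks. Ends of several coding genes held 169, ends of tRNA, snRNA or snoRNA genes 101, ends of lncRNA genes alone 32 and ends of other genes 8. The 145 peaks inside genes and the 74 between genes complete the set. The share of peaks that were wide ran from 61.2% at tRNA, snRNA or snoRNA ends (101 of 165, interval 53.3 to 68.7%) to 31.9% at ends of several coding genes, 22.3% at the end of 1 coding gene, 11.1% inside genes and 6.98% between genes. Over all peaks it was 18.3%. The intervals of these 5 classes do not overlap one another. The bar plot by location gives them.

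**Figure D2:**
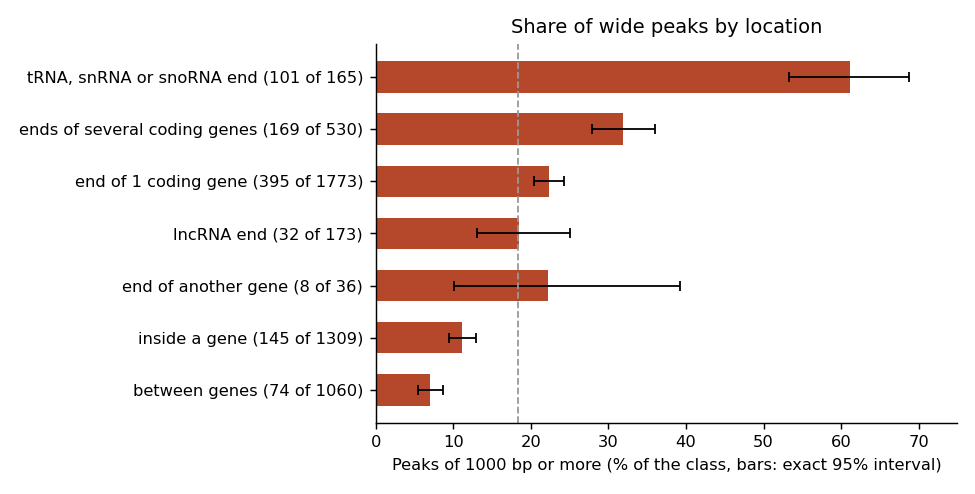
Percent of the peaks in each location that were 1000 bp or wider, with exact 95% intervals. Counts are wide peaks of all peaks in the class, and the dashed line is the 18.3% over all peaks. Small RNA gene ends stand at 61.2% and peaks between genes at 6.98%.

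The change with width was gradual below the threshold and uneven above it. The share at a gene end was 20.6% under 500 bp, 43.3% from 500 to under 700 bp and 65.8% from 700 to under 1000 bp. From 1000 to under 1200 bp it was 72.1%, from 1200 to under 1500 bp 79.7% and from 1500 to under 2000 bp 82.5%. Among the 53 peaks of 2000 bp or more it was 71.7%, with a wide interval because of the small number. Small RNA gene ends made up 5.58%, 7.91% and 29.4% of the peaks in these 3 ranges. At 2000 bp or more they made up 20.8%. Coding gene starts stood at 61.8%, 65.3%, 54.0% and 49.0% in these 4 ranges.

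**Figure D3:**
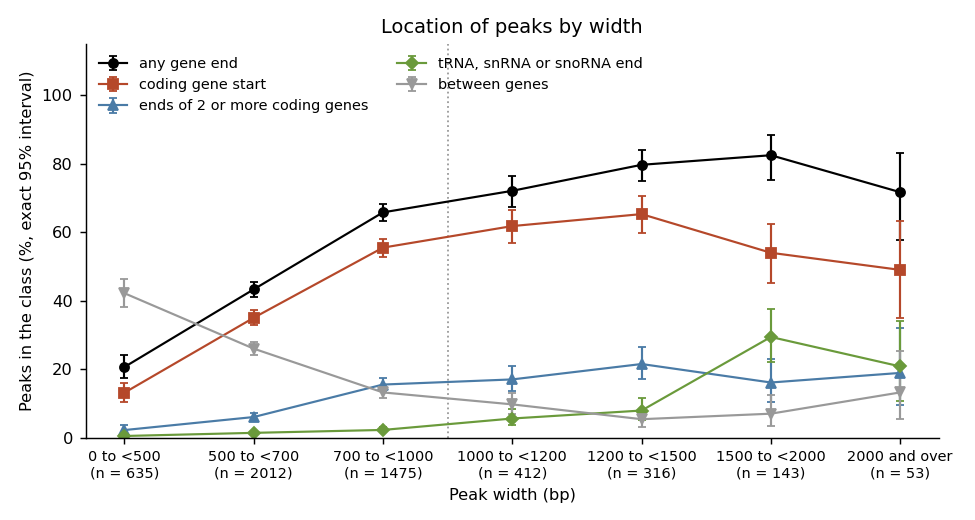
Percent of peaks in each of 5 location classes by peak width, with exact 95% intervals. The classes can overlap. The dotted line is the 1000 bp threshold. The share between genes falls from 42.2% under 500 bp to 5.38% at 1200 to under 1500 bp, and small RNA gene ends reach 29.4% at 1500 to under 2000 bp.

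At coding genes the wide peaks lay at the start of transcription. Listed starts with strand cover 17492 of 21887 coding genes and none on chromosome 18, so the following leaves out that chromosome. A listed coding start lay within 1 kb of the midpoint in 549 of 899 wide peaks (61.1%, interval 57.8 to 64.3%), in 39.0% of narrower peaks (37.5 to 40.5%) and in 43.0% of all peaks. For coding genes over 10 kb, whose ends are far apart, 333 wide peaks were at the start and 16 at the other end alone. That is 95.4% at the start (92.7 to 97.4%), and the narrower peaks stood at 95.5%. Wide and narrower peaks thus had nearly the same preference for the start.

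Where 1 coding gene start lay near, wide peaks spread to both sides of it. In 433 of these 448 wide peaks (96.7%) the start was inside the peak, which reached a median of 668 bp upstream (quartiles 471 and 868 bp) and 591 bp downstream (373 and 789 bp). The start was inside 1180 of 1327 narrower peaks (88.9%), which reached 385 bp upstream and 291 bp downstream. Wide peaks were selected on width, so their longer reach follows from the selection, which also favours a start inside the peak. The midpoint lay downstream of the start in 44.2% of wide peaks (39.5 to 48.9%) and in 33.8% of narrower ones (31.2 to 36.4%). The median midpoint was close in both, at -49.8 bp in wide and -53.0 bp in narrower peaks, where minus means upstream. The coverage plot around the start shows the broader shape.

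**Figure D4:**
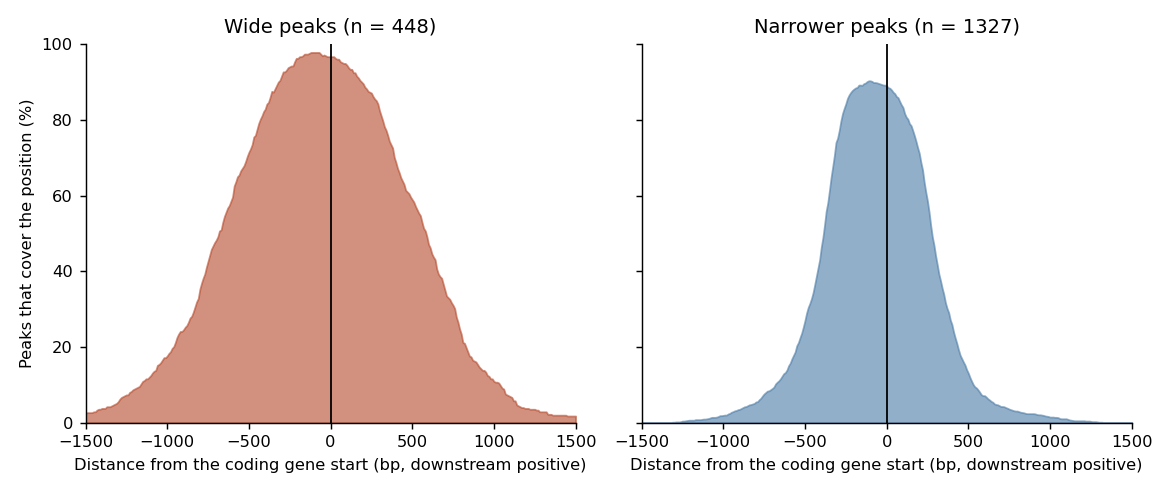
Percent of peaks that cover each position around a coding gene start, for wide peaks (left, n = 448) and narrower peaks (right, n = 1327) with 1 coding gene start within 1 kb of the midpoint. The vertical line is the start and downstream is positive. Both shapes centre just upstream of the start. The wide peaks extend farther on both sides, which follows from their selection on width.

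Shared ends were more common under wide peaks. Ends of 2 or more coding genes lay within 1 kb of the midpoint in 171 of 924 (18.5%, interval 16.1 to 21.2%), against 8.81% of narrower peaks (7.96 to 9.71%) and 10.6% of all peaks. Starts of 2 or more coding genes did so in 101 of 899 wide peaks (11.2%) and in 5.74% of narrower ones. In 83 of those 101 the genes were read away from each other from neighbouring starts, as at divergent promoters. For this call 1 pair of listed starts in that order was enough. In 11 every listed minus-strand start lay above the plus-strand ones, so the genes run towards or across each other. In 7 the genes lay on the same strand. Among narrower peaks 207 of 229 were of the first kind, which is no smaller a part than under wide peaks. Wide examples of divergent pairs were Ddx5, an RNA helicase, with Cep95, a centrosomal protein (chr11:106787295-106789628, 2334 bp, score 118), Mcm7, a subunit of the replicative helicase, with Ap4m1 (2136 bp, score 72.2), and Hnrnpa2b1, an RNA-binding protein, with Cbx3, a heterochromatin protein (1845 bp, score 53.3). These 3 pairs were chosen after their values were seen. Ends of 3 coding genes met under 4 wide peaks, the widest at the histone genes H2ac21, H2ac20 and H2bc21 (2412 bp, score 64.7). The others were at Cyb5d1, Naa38 and Tmem88 (1954 bp), at Hyal1, Naa80 and Hyal3 (1065 bp), and at Psme3ip1, LOC115486880 and Rspry1 (1053 bp).

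Genes for small structural RNAs had the highest share of wide peaks. Of 57 peaks at snRNA genes, which encode RNAs of the spliceosome and related particles, 42 were wide (73.7%, interval 60.3 to 84.5%), with a median score of 264. Of 87 peaks at tRNA genes 46 were wide (52.9%, 41.9 to 63.7%), and of 23 at snoRNA genes, whose RNAs guide chemical modification of other RNAs, 14 were (60.9%, 38.5 to 80.3%). At miRNA genes 13 of 34 were wide (38.2%, 22.2 to 56.4%). Small RNA ends were found at 10.9% of wide and 1.55% of narrower peaks. Many of these genes have near-identical copies, so the placement of reads among copies is uncertain.

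For tRNA genes the width went with the number of genes at the peak. Where 1 tRNA gene lay within 1 kb of the midpoint, 16 of 53 peaks were wide (30.2%, interval 18.3 to 44.3%). With 2 or more tRNA genes 30 of 34 were (88.2%, 72.5 to 96.7%). In all, 94 tRNA genes lay whole inside 45 wide peaks, with up to 5 in a single peak. That peak, at chr1:171063568-171067497 (3930 bp, score 54.9), held n-TEctc5, n-TGtcc1, n-TDgtc3, n-TLcag6 and n-TGgcc12 and also covered the annotated 5′ end of Fcgr3, an Fc receptor gene whose listed starts lie outside the peak. It was among the 5 widest peaks, with a score under the lower quartile of wide peaks. The run with the most tRNA genes was on chromosome 11, where 5 wide peaks at 16 tRNA genes lay within 89.1 kb (69036687 to 69125738, scores 64.3 to 144).

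The snRNA peaks were wide at single genes. In 55 of the 57 peaks there was 1 snRNA gene, and 40 of these 55 were wide (72.7%). Types are as RefSeq gives them, and its snRNA class also holds the U3 genes Rnu3b1, Rnu3b3 and Rnu3b4, whose RNA acts in ribosomal RNA processing. These 3 genes lay whole inside wide peaks of 1593, 1500 and 1522 bp with scores of 496, 598 and 529. Rnu11 and Rnu12, of the minor spliceosome, had peaks of 1207 bp (score 544) and 1349 bp (score 260). Rnu1a1, Rnu2-10 and Rnu5g, copies of the U1, U2 and U5 RNAs, had peaks of 1574, 1829 and 2019 bp (scores 336, 412 and 211), and Rnu7, which acts in histone mRNA processing, 1 of 1751 bp (score 107). Each of these genes is far shorter than its peak.

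Wide snRNA peaks came in runs. On chromosome 12, 7 wide peaks at 7 snRNA genes lay within 43.7 kb (54695332 to 54739027), with widths from 1353 to 2627 bp and scores from 120 to 476. On chromosome 11 there were 5 within 41.0 kb (87422227 to 87463223) and 4 within 32.6 kb around Rnu2-10 (101627027 to 101659653). Further runs had 4 peaks within 30.3 kb on chromosome 1 and 3 within 39.7 kb on chromosome 3. In each run the count of snRNA genes within 1 kb of a wide peak's midpoint equalled that of wide peaks. Other snRNA genes in the runs were not counted, such as Gm23137, whose window the Rnu3b1 peak reached.

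Other genes of short noncoding RNAs were covered in the same way. The Y RNA genes Rny1 and Rny3 had wide peaks (1544 and 1027 bp, scores 335 and 450). So did the 7SK gene Rn7sk, whose RNA holds back the elongation factor P-TEFb (1696 bp, score 272), and the signal recognition particle RNA genes Rn7s1 and Rn7s2 (1416 and 1278 bp, scores 113 and 133), the first in the peak that also lies at Rps29. Rmrp, the RNA of RNase MRP, had a peak of 1541 bp (score 351). Peaks at the RNase P RNA genes were 2, and both were narrower. The genes named in these sentences on short RNAs, other than those of the 10 highest-scoring peaks, were chosen after their values were seen.

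Of the 10 highest-scoring wide peaks, 6 were at snRNA genes: those of Rnu3b1, Rnu3b3, Rnu3b4 and Rnu11, 1 over Gm24950 (1592 bp, score 531) and 1 over Gm25541 (1125 bp, score 505). The highest was over the lncRNA gene Gm40237, which it covered whole (chr4:118546889-118549001, 2113 bp, score 680). The others were at Vmn2r29, a vomeronasal receptor gene (1175 bp, score 582), inside Cacng4, a calcium channel subunit gene, 9.09 kb from its nearest gene end (1480 bp, score 485), and at Rnf44, a RING finger gene (1262 bp, score 480).

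Of the 15 widest peaks the following lay at coding genes, with scores from 51.4 to 92.2. The peak at Ptma was 4465 bp wide (score 56.0) and covered 2044 bp before the start and 2421 bp of the gene. The Rpl10a gene lay whole inside a peak of 3983 bp (score 92.2), which went 468 bp beyond its start and 952 bp beyond its other end. At Eef1a1 the peak of 2697 bp (score 63.9) covered 865 bp before the start and 1832 bp of the gene. A peak of 2695 bp (score 67.3) lay over Actb, the beta-actin gene. A peak of 3494 bp (score 51.4) covered 3228 bp of Ppp1r10 and reached the start of Mrps18b. Egr1, an immediate early transcription factor gene, had a peak of 2933 bp (score 88.4) over the end with the higher coordinate. It lies on chromosome 18, for which no starts or strands are listed. Whether that end is the start or the 3′ end was therefore not determined, and the counts by start or 3′ end leave this peak out.

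Some of the widest peaks lay mostly past the annotated 3′ end of a gene. At H3f3b, a gene of the replacement histone H3.3, a peak exceeded in width by a single other one covered 621 bp of the gene and 3936 bp beyond its 3′ end (chr11:116018025-116022581, 4557 bp, score 57.8). At Actg1, the cytoplasmic gamma-actin gene, the peak covered 70 bp of the gene and 3009 bp beyond it (chr11:120342678-120345756, score 55.5). At Malat1, an abundant nuclear lncRNA, it covered 190 bp of the gene and 2796 bp beyond (chr19:5792894-5795879, score 80.9), next to the gene of mascRNA, a small RNA cut from the 3′ end of the Malat1 transcript. Such a place was rare. A wide peak reached the window of 1 kb around the 3′ end of a coding gene, with no listed start in reach, in 22 of 899 cases (2.45%, interval 1.54 to 3.68%), and a narrower peak in 60 of 3992 (1.50%, 1.15 to 1.93%). These intervals overlap. Besides H3f3b and Actg1, the 22 included peaks past the ends of Rpl13a (1744 of 1775 bp) and Gapdh, a glycolytic gene (1423 of 1472 bp, while a separate peak of 2009 bp lay inside that gene), and 6 that also lay at small RNA genes: those at Hes7, Borcs6, Mrpl58, Ctc1, Tmem107 and Per1. Gapdh and the genes after it were chosen after their values were seen.

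The widest peak of all lay far from annotated genes, 21.6 kb from the nearest gene end (chr11:3099940-3104956, 5017 bp, score 123). It was among the 91 wide peaks whose midpoint was more than 10 kb from any gene end (9.85%, against 28.6% of narrower peaks). The next widest of these lay inside Myo3a (3363 bp, score 129), inside Akap9 (2420 bp, score 156), at chr4:3089322-3091695 (2374 bp, score 230) and inside Impact (2159 bp, score 94.7). Of the 15 widest peaks, those not yet named were inside Gm20590 (2985 bp, score 371), at the lncRNA gene 4930526I15Rik on chromosome 9 (2849 bp, score 79.5), and at the pseudogene Pisd-ps1 on chromosome 11 (2629 bp, score 172).

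Ends of lncRNA genes lay within 1 kb of the midpoint of 130 wide peaks (14.1%, interval 11.9 to 16.5%), against 8.30% of narrower (7.47 to 9.18%) and 9.35% of all peaks. Most of the 130 also had a coding gene end in reach: this held for 86, and 44 were at lncRNA ends without one. In 32 wide peaks the gene ends near the midpoint were of lncRNA genes alone. Besides 4930526I15Rik and Gm40237, the widest of the 32 were at Gm41159 (2019 bp, score 59.9), Gm40034 (1876 bp, score 89.2) and 2310068J16Rik (1852 bp, score 85.7). The last of these lies whole inside its peak, within the coding gene Larp4.

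Counted by gene, 841 of 21887 coding genes (3.84%) had a wide gene-end peak, one that overlapped the stretch within 1 kb of an end by 1 bp or more. A gene-end peak of any width was found at 3033 genes (13.9%). Of those, 27.7% had a wide one, and the median width, taking each gene's widest peak, was 803 bp. The 841 genes were reached by 644 wide peaks, and 207 of these reached 2 or more coding genes. This overlap rule gives a wide peak more chance than a narrow one to reach a window. With the midpoint inside the window, 761 genes had a wide gene-end peak and 2097 narrower ones alone. The lists below use the overlap rule and were compared with the shares under it, and counts stand in place of a test. The plot of gene lists gives them together.

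**Figure D5:**
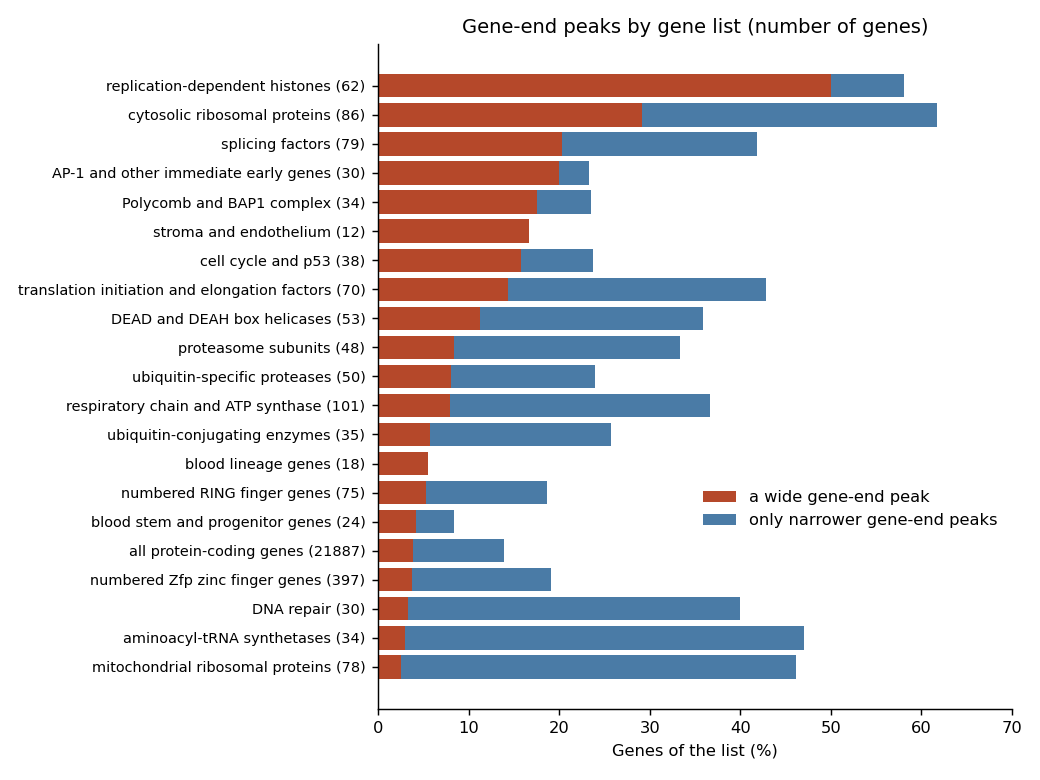
Percent of the genes of each list with a wide gene-end peak and, stacked beside it, with narrower gene-end peaks alone, with the number of genes in parentheses. Histone genes reach 50% with a wide peak and mitochondrial ribosomal protein genes 2.56%, while all coding genes stand at 3.84%. Olfactory receptor genes, with 0 peaks, are not drawn.

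Replication-dependent histone genes, which supply histones during DNA synthesis and lie in clusters, carried wide peaks most often of the lists. Of 62 genes 31 had a wide peak (50%, interval 37.0 to 63.0%), 5 had narrower peaks alone and 26 had none. The 31 genes shared 19 distinct wide peaks, with a median width of 1804 bp counted by gene. A peak of 2517 bp (score 51.2) covered H2ac18 and H3c14 whole, and another of 2412 bp covered H2ac21 and H2ac20 whole and reached H2bc21. H1f2, a linker histone gene, had 1 of 2210 bp (score 82.1), and H1f1 and H1f5 had none. Of the 27 coding genes that lay whole inside a wide peak 23 were on this list. Near-identical copies make the placement of reads uncertain here too.

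Genes of the cytosolic and the mitochondrial ribosome differed in width, though both carried peaks often. Of 86 cytosolic ribosomal protein genes 25 had a wide peak (29.1%, interval 19.8 to 39.9%) and 28 narrower ones alone. Those named here were at Rpl10a, at Rpl13a (1775 bp, score 62.6) and at Rps12 (1674 bp, score 149). Fau had none and Rpl10 a narrower one. Of 78 mitochondrial ribosomal protein genes 2 had a wide peak (2.56%, 0.312 to 8.96%), Mrps18b and Mrpl58 (1960 bp, score 98.0), and 34 had narrower ones alone. Mrpl1 had a narrower peak and Mrpl10 none. Among genes with a peak the median width was 970 bp at the cytosolic and 670 bp at the mitochondrial list, while the median score was lower at the cytosolic list (70.6) than at the mitochondrial one (97.4). Some peaks at these genes also lay at small RNA genes, such as that of Mrpl58, at tRNA genes, and that of Rps12, at a snoRNA gene.

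Lists for RNA processing and translation lay between. Of 79 splicing factor genes 16 had a wide peak (20.3%, interval 12 to 30.8%) and 17 narrower ones alone. They were led by Hnrnpul1 (2179 bp, score 91.5), Hnrnpa2b1, Srsf1 (1691 bp, score 58.1) and Srsf7 (1595 bp, score 82.0), and Hnrnpa0 and Hnrnpa1 had none. Of 70 genes named as translation initiation or elongation factors 10 had one (14.3%, 7.07 to 24.7%) and 20 narrower ones alone. The wide ones were led by Eef1a1, Eif4a1 (2155 bp, score 83.0), Eif4a2 (1760 bp, score 104) and Eif5b (1392 bp, score 87.2). Eef1a2 had none and Eef1akmt1 a narrower peak. Of 53 DEAD and DEAH box helicase genes 6 had one (11.3%, 4.27 to 23.0%) and 13 narrower ones alone. The wide ones were led by Ddx5, Dhx40 (1117 bp), Ddx42 (1085 bp) and Ddx54 (1070 bp), while Ddx1 had a narrower one and Ddx10 none. Gene-end peaks of any width were found at 41.8% of splicing factor, 42.9% of translation factor and 35.8% of helicase genes, against 13.9% of all coding genes. Among genes with such a peak, the wide share was 48.5%, 33.3% and 31.6%, against 27.7% over all coding genes. Aminoacyl-tRNA synthetase genes, which charge tRNAs with amino acids, had these counts: 15 of 34 carried narrower peaks alone, 18 had none and Mars1 had a wide one (1620 bp, score 53.8). Aars had a narrower one and Aars2 none.

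Immediate early genes respond within minutes to stimuli, which was not checked for each listed gene. Of 30 AP-1 and other immediate early genes 6 had a wide peak (20%, interval 7.71 to 38.6%), 1 had a narrower peak alone and 23 had none. Besides Egr1 these were Cited2, a transcriptional coregulator (2002 bp, score 54.2), Fos, an AP-1 subunit (1684 bp, score 53.8), Dusp1, a phosphatase of MAP kinases (1472 bp, score 75.3), Ppp1r15a, a stress-induced phosphatase subunit (1328 bp, score 67.2), and Fosb, another AP-1 subunit (1130 bp, score 447). The Ppp1r15a peak lay past its 3′ end, and the Egr1 peak over the end with the higher coordinate. The Fosb peak did not touch its gene and reached within 1 kb of the end with the lower coordinate. Atf3 and Batf had none. The list of Polycomb and BAP1 genes covers PRC1, which places the H2A mark that Usp16 removes, PRC2, which marks histone H3, and BAP1, which also removes the H2A mark. In it, 6 of 34 had a wide peak (17.6%, 6.76 to 34.5%) and 2 narrower ones alone. The widest were at Pcgf2, of PRC1 (1544 bp, score 83.4), Eed and Mtf2, of PRC2 (1418 bp, score 91.4, and 1205 bp, score 73.1), and Asxl1, a partner of BAP1 (1157 bp, score 91.2). The Pcgf2 peak is shared with Psmb3 and covers the tRNA gene n-TNgtt8. Aebp2 and Asxl2 had none. Of 38 cell cycle and p53 genes 6 had one (15.8%, 6.02 to 31.3%) and 3 narrower ones alone, led by Mcm7, Trp53 (1681 bp, score 53.5, shared with Wrap53), Aurka (1317 bp, score 82.3) and Cdk4 (1254 bp, score 77.4). Aurkb and Bax had none.

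The next lists, like the mitochondrial ribosomal protein and aminoacyl-tRNA synthetase lists above, had intervals that include the share of all coding genes. Of 48 proteasome genes 4 had a wide peak (8.33%, interval 2.32 to 20%): Psmb3, Psma3 (1327 bp), Psma1 (1130 bp) and Psmd3 (1036 bp). Psma2 and Psma4 had none. Of 101 respiratory chain and ATP synthase genes 8 did (7.92%, 3.48 to 15%), led by Atp5g2 (1898 bp), Ndufs3 (1362 bp), Ndufa13 (1285 bp) and Ndufs1 (1274 bp, score 192), while Atp5b had a narrower one and Atp5a1 none. Of 50 ubiquitin-specific protease genes, the family of Usp16, 4 did (8%, 2.22 to 19.2%): Usp9x (1331 bp), Usp21 (1154 bp), Usp32 (1138 bp) and Usp1 (1073 bp). Usp10 and Usp11 had none. Of 35 ubiquitin-conjugating enzyme genes Ube2m (1297 bp) and Ube2q1 (1081 bp) did, and Ube2a and Ube2b had no peak. Of 75 numbered RING finger genes 4 did (5.33%, 1.47 to 13.1%): Rnf167 (1470 bp), Rnf44, Rnf41 (1247 bp) and Rnf13 (1227 bp), while Rnf10 and Rnf103 had none. Of 397 numbered Zfp genes 15 did (3.78%, 2.13 to 6.16%), led by Zfp668 and Zfp646, which share 1 of 2304 bp (score 239), Zfp687 (1646 bp) and Zfp513 (1566 bp), and Zfp1 and Zfp101 had none. Of 30 DNA repair genes 1 did, Chek2 (1095 bp, score 55.0), although 11 carried narrower peaks alone, Atr among them. Atm had none.

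For marker genes of cell types the counts were small. Of 24 stem and progenitor genes Hoxa9, a homeobox gene, had a wide peak (1190 bp, score 52.6; 4.17% of the list, 0.105 to 21.1%), 1 gene had a narrower peak and 22 had none, Cbfb and Cd34 among them. Of 18 lineage genes Cebpa, a myeloid transcription factor gene, had one (1305 bp, score 92.5; 5.56%, 0.141 to 27.3%), and Cd3e had none. Of 12 genes of stroma and endothelium Pdgfra (1490 bp, score 57.1) and Col1a1 (1271 bp, score 60.1) did (16.7%, 2.09 to 48.4%). Acta2 and Adipoq had none. The intervals of both blood lists and of the stroma and endothelium list include the 3.84% of all coding genes. None of 1106 olfactory receptor genes had a gene-end peak, such as Olfr1 and Olfr10, which allows a share with a wide peak of up to 0.333% (upper 95% bound). Usp16 itself, Kit and Ly6a had no gene-end peak. Their nearest wide peak midpoints lay 624, 423 and 1353 kb from an end of the gene.

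Promoters under wide peaks did not stand apart in base composition from those under narrower peaks. For each coding gene 1 listed start was taken, the one nearest the gene's annotated 5′ end, and it lay inside a wide peak for 615 genes and inside a narrower one for 1536. The ratio of observed to expected CpG, a measure of CpG islands, had a median of 0.822 (quartiles 0.698 and 0.947) under wide and 0.825 (0.698 and 0.938) under narrower peaks. Over the 15341 coding promoters without a peak it was 0.493 (0.191 and 0.797). A ratio of 0.6 or more was found in 86.5% of promoters under wide peaks (interval 83.5 to 89.1%), 86.7% under narrower peaks (84.9 to 88.4%) and 48.4% of all 17492.

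Short motifs were searched on both strands of these 300-base promoters, and a match is a description of letters, not a binding site. GGGCGG (SP/KLF) occurred in 66.5% of promoters under wide peaks (interval 62.6 to 70.2%), 60.3% under narrower peaks (57.8 to 62.7%) and 46.3% of all. CCGGAAG (ETS) occurred in 24.6% (21.2 to 28.2%), 30.1% (27.8 to 32.4%) and 11.9%, so it was less frequent under wide than under narrower peaks, and the intervals for both motifs overlap slightly. TCTCGCGAG occurred in 5.69% (4 to 7.83%), 5.21% (4.15 to 6.44%) and 1.03% of all. TATAAA occurred in 8.94% (6.81 to 11.5%), 6.77% and 13.3%, and CCAAT in 41.1%, 38.0% and 39.2%. GCGCATGCG (NRF1) and AAGATGGCG (YY1) each occurred in 5.04% of promoters under wide peaks, in 4.49% and 4.82% under narrower peaks and in 2.41% and 1.92% of all. TGACGTCA (CRE) occurred in 4.55%, 3.78% and 2.33% of the same 3 sets, CACGTG (E-box) in 12.7%, 11.7% and 7.91%, and TGANTCA (AP-1) in 3.09%, 4.23% and 7.03%. For these 5 motifs the values under wide and narrower peaks lay closer to each other than to the share in all promoters. Matches of different motifs overlapped in few of the 615 promoters, 5 for ETS with SP/KLF, 2 each for SP/KLF with the CCAAT box, SP/KLF with the E-box and AP-1 with the E-box, and 1 for AP-1 with the CCAAT box.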

How the data were processed

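The authors deposited 1 list of peaks with positions and a score per peak, and each score is as the caller wrote it, with 50 as the lowest listed. Peaks were called with MACS in Galaxy, per the file headers. Bowtie, Picard and mm10 are named in the submitters' processing notes. Not given in the sources used here: what the score measures, versions, settings, read depth and how IgG entered the call. A site without a listed peak may still be bound. DNA was sheared to about 200 bp, per the labels' protocols.

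Peaks on 21 assembled chromosomes were set against RefSeq genes (GRCm38.p6, 49943 records) and, for strand and starts, against 32850 listed starts of coding and lncRNA genes. The promoter table holds 17492 of 21887 coding genes (79.9%). Widths are end minus start, and positions are 1-based. A peak was placed by its midpoint, except in the counts by gene and at 3′ ends, which took any overlap with the window. Python 3.11.15, pandas 2.3.3, numpy 2.4.6 and scipy 1.17.1 were used, and the annotation code was tested on simulated data.

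The members, the 21 gene lists and the motifs were chosen with earlier results of these data known. Named were the genes at the 15 widest and 10 highest-scoring wide peaks, the 5 widest at lncRNA ends alone and more than 10 kb from gene ends, up to 4 wide and 2 other members per list, 3 peaks on each side of the threshold, and Usp16, Kit and Ly6a. Some genes of that rule are not reported here. Alternatives were other width thresholds (1200 and 800 bp), windows (500 bp and 5 kb) and overlap rules, higher-scoring peaks, coding genes alone, removal of X and Y or of small RNA peaks, and merging within 1 kb.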

Additional observations from a re-analysis of the deposited data

How the results depend on the processing

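With 1 list and no replicates, 66 values were recomputed under alternative settings, and 45 of them stayed inside the reported value's 95% interval or, for the count of genes, within 1.5 times of it. The difference between wide and narrower peaks kept its direction for all 5 shares and for the median score under every setting tried. The share at gene ends was 79.7% at a threshold of 1200 bp, 68.3% and 86.7% with windows of 500 bp and 5 kb, 80.3% by any overlap, 64.6% for coding genes alone and 73.4% without the peaks at small RNA gene ends. With windows of 500 bp and 5 kb the share at ends of several coding genes was 13.1% and 33.4% (22.4% by any overlap), that at lncRNA ends 10.1% and 20.5%, that between genes 9.96% and 5.19%, and that at coding starts 55.5% and 67.0%. The share between genes was 19.0% for coding genes alone, and the share at coding starts 66.0% without the small RNA peaks. The median score was 102 among peaks at or above the median score (95.3 for narrower peaks). The count of coding genes with a wide gene-end peak followed the threshold, with 493 at 1200 bp and 1539 at 800 bp, and was 522 with the higher-scoring peaks. Read depth is unknown, so whether deeper sequencing would widen peaks was not tested.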

Other observations

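The share of wide peaks differed between chromosomes. It was 33.2% on chromosome 11 (113 of 340, interval 28.2 to 38.5%) and 26.8% on chromosome 7 (95 of 354, 22.3 to 31.8%), against 18.3% over all. It was 10.4% on chromosome 14 (21 of 201, 6.58 to 15.5%) and 3.30% on chromosome X (3 of 91, 0.685 to 9.33%), while chromosome Y had 7 peaks and 0 wide ones. Chromosome 11 holds the runs at snRNA and tRNA genes described above, and without all peaks at tRNA, snRNA or snoRNA ends its share was 28.5% (88 of 309) against 16.9% over all chromosomes.

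Outside the assembled chromosomes, which the comparisons leave out, 33 peaks were listed on 9 contigs, and 22 of them (66.7%) were 1000 bp or wider. These 22 had a median width of 1994 bp and a median score of 113.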
